A study of Drosophila melanogaster with 12 samples.

Results

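The glutathione S-transferase (GST) genes of *Drosophila* were examined in wing imaginal discs mutant for *ash2* or *ash1*. Members were all genes whose symbol in the probe annotation begins with Gst and a class letter, which gave 35 of the 12131 genes with a probe. They comprised 11 genes of class D (delta), 14 of class E (epsilon), 3 of class O (omega), 1 of class S (sigma), 4 of class T (theta) and 2 of class Z (zeta). Each gene had 1 probe, a long oligonucleotide, other than *GstO2* and *GstS1* with 2 each.

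Wing discs of larvae in the third instar, staged with bromophenol blue, were taken from 3 mutants. ash2-I1 (written ash2I1 in the labels) dies as a late larva or early pupa and has small, misshapen discs. ash2-112411 (ash2112411) is a weaker *ash2* allele that reaches the pharate stage and leaves a few adults. ash1-22 is a null *ash1* allele that dies at the larval to pupal transition and was studied over the chromosome labelled 22-F2A, with less affected discs than ash2-I1. The reference was disc RNA of an isogenic white-eyed line, w1118, pooled into 1 sample and hybridized on every array. By the methods, the mutant stocks received chromosomes X, Y and 2 of that line. No such replacement was described for chromosome 3, which carries both mutated genes and the GST genes of classes D, O and Z.

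GST enzymes join the tripeptide glutathione to electrophilic compounds, which include insecticides, plant toxins and the aldehydes left by lipid peroxidation, and the conjugates are then pumped out of the cell. Classes D and E are the insect-expanded classes, known for insecticide detoxification and for induction by the transcription factor CncC (the fly Nrf2), whereas the omega, sigma, theta and zeta classes are shared more widely among animals. Most D genes lie side by side on arm 3R and most E genes on arm 2R.

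Each allele had 4 two-color arrays, from 2 RNA extractions with the dyes exchanged, and the values are log2 ratios of mutant over reference. An ash2-I1 array held 7542 to 8007 measured spots, those of ash2-112411 held 10441 to 11179 and those of ash1-22 held 5804 to 10747. On single arrays 24 to 26 GST genes were measured in ash2-I1, 29 to 31 in ash2-112411 and 18 to 33 in ash1-22. The targeted *ash2* gene was lower in ash2-I1, at −2.21 to −1.21 on 4 arrays (mean −1.75 ± 0.16, SE). It was lower in ash2-112411 too, at −2.07 to −1.47 on 3 arrays (mean −1.62 ± 0.16). In ash1-22 it was at 0.19 and 0.34 on 2 arrays (adjusted p = 0.297 in limma), and *ash1* itself was not analysed here. Here and below, the SE of a mean uses 1 spread per probe, estimated over the extractions of the 3 alleles together. A gene therefore has the same SE in each allele where it was tested. All 35 GST genes were measured on 1 array or more. Testing needed a value from both extractions of the allele, which 25 GST genes had in ash2-I1, 31 had in ash2-112411 and 30 had in ash1-22. Missing values come from the quality filter on spots, and a gene can pass it through the sample where it is high. The genes of a cluster are related in sequence, and whether a probe also bound a neighbor's transcript was not tested.

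A group of E and D genes was upregulated in the *ash2* mutants, with *GstE6* and *GstD9* among the 3 highest GST genes in both. No GST gene was downregulated over 1.5-fold in both *ash2* alleles. *GstE12*, *GstO3* and *GstS1* were so in ash2-I1 only, and *GstO2* in ash2-112411 only. In ash2-I1, 10 of 25 tested GST genes passed both thresholds of a call (adjusted p under 0.05 in limma, and over 1.5-fold or 0.58 in log2) and were upregulated, where 5.54% of all tested genes were, and 3 were downregulated, where 6.95% were. In ash2-112411, 9 of 31 were upregulated, where 8.49% of all genes were, and 1 was downregulated, where 8.82% were. In ash1-22, 3 of 30 were upregulated, where 1.81% were, and 0 were downregulated, where 1.25% were. For tested GST genes the median log2 ratio stood at 0.17 in ash2-I1, at 0.26 in ash2-112411 and at 0.13 in ash1-22, against 0.02, −0.00 and 0.01 for all tested genes. At an adjusted p under 0.05 with no fold threshold, 12 GST genes were higher and 7 lower in ash2-I1 (17.9% and 19.8% of all genes). The counts were 15 higher and 9 lower in ash2-112411 (24% and 26.3%), and 3 higher and 1 lower in ash1-22 (4.85% and 6.51%). The 3 alleles were compared with the same reference pool, whose own error is in none of the standard errors and is shared by their ratios. In all, 16 GST genes were called in at least 1 allele, 12 of them up and 4 down. The share of all genes called in at least 1 allele was not counted, so these totals have no share to stand against. A change in a disc value can come from the number of cells of a type or from RNA per cell, and these cannot be told apart.

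**Figure D1:**
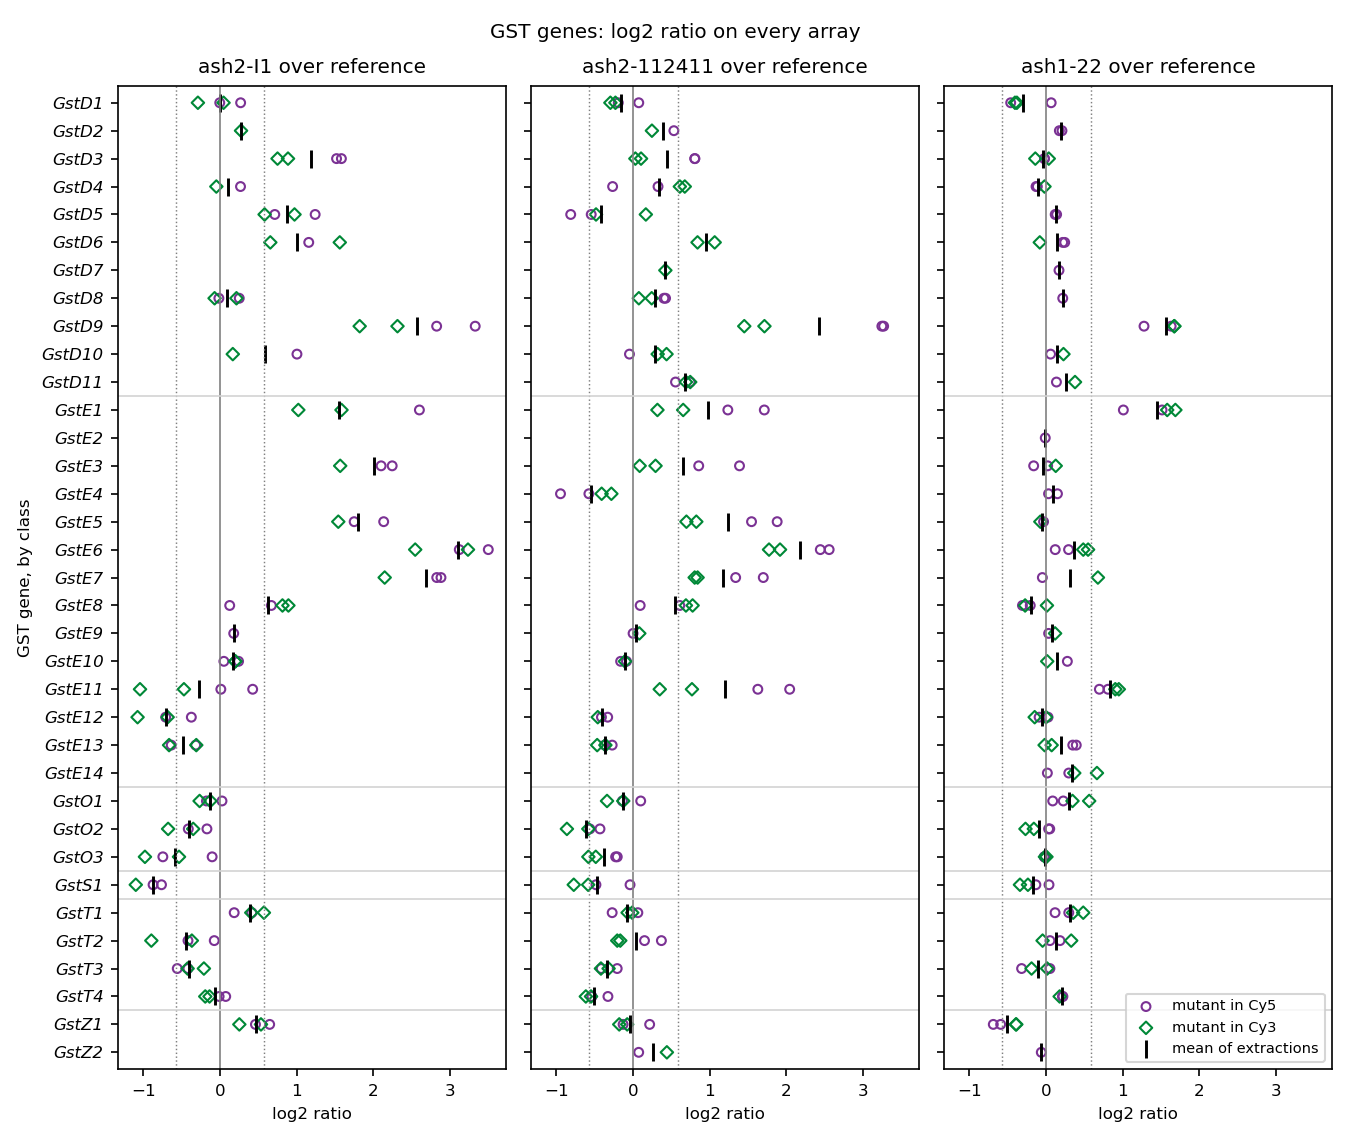
Log2 ratio of mutant over reference (horizontal axis) for the 35 GST genes (rows, by class) on every array of the 3 alleles; circles have the mutant RNA in Cy5, diamonds in Cy3, the black bar is the mean of the extractions and dotted lines mark 1.5-fold. *GstE6* in ash2-I1 lies between 2.55 and 3.50 on all 4 arrays, while *GstE11* spans −1.04 to 0.43 in ash2-I1 and 0.35 to 2.04 in ash2-112411.

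*GstD9*, a delta class gene near one end of the 3R cluster, was the most strongly upregulated D gene in each allele. In ash2-I1 it was at 3.33 (mutant in Cy5) and 2.32 (mutant in Cy3) in extraction 1 and at 2.83 and 1.82 in extraction 2. In ash2-112411 the values were 3.25 and 1.45, then 3.27 and 1.71. In ash1-22 they were 1.63 and 1.67, then 1.28 and 1.67. All 12 arrays were above 1.5-fold, and in both *ash2* alleles the Cy5 arrays lay above the Cy3 arrays. The means were 2.57 ± 0.12 in ash2-I1 (adjusted p = 2.75e-05), 2.42 ± 0.12 in ash2-112411 (8.52e-05) and 1.56 ± 0.12 in ash1-22 (0.0014). The adjacent *GstD1*, known as a DDT-metabolizing enzyme and widely used as a CncC reporter, was at 0.01, −0.16 and −0.30 in the same order of alleles, with no adjusted p under 0.0985.

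Of the D genes farther into the cluster, *GstD3*, *GstD5* and *GstD6* were upregulated in ash2-I1 and *GstD6* and *GstD11* in ash2-112411. In ash2-I1 *GstD3* was at 1.52 (Cy5) and 0.89 (Cy3) in extraction 1 and at 1.58 and 0.75 in extraction 2, with a mean of 1.19 ± 0.07 (adjusted p = 5.32e-05). In ash2-112411 its Cy5 arrays were both at 0.81 and its Cy3 arrays at 0.03 and 0.10 (mean 0.44 ± 0.07, adjusted p = 0.00159, under 1.5-fold), and in ash1-22 the 4 arrays ran from −0.14 to 0.03. The ash2-I1 range overlapped that of ash2-112411 only through its lowest array, which was in Cy3.

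*GstD5* took opposite signs in the *ash2* alleles. It was at 1.24 (Cy5) and 0.97 (Cy3), then 0.71 and 0.58, in ash2-I1 (mean 0.88 ± 0.11, adjusted p = 0.00099). Its log2 ratios in ash2-112411 stood at −0.81 and 0.17, then −0.55 and −0.48 (mean −0.42 ± 0.11, adjusted p = 0.0172), and in ash1-22 its 2 measured arrays were at 0.12 and 0.14. The 2 *ash2* alleles did not overlap, although 1 ash2-112411 array was above 0.

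*GstD6* was measured on 3 arrays of ash2-I1, at 1.16 (Cy5) and 1.56 (Cy3) in extraction 1 and 0.66 (Cy3) in extraction 2, and its mean was 1.01 ± 0.15 (adjusted p = 0.00208). In ash2-112411 it had only the Cy3 arrays, at 1.07 and 0.84 (mean 0.95 ± 0.15, adjusted p = 0.00192), so that dye effects did not cancel there. In ash1-22 it lay at −0.08 to 0.24 on 3 arrays. *GstD11*, at the far end of the cluster, was not measured in ash2-I1 and was upregulated in ash2-112411, at 0.55 and 0.69, then 0.74 and 0.75 (mean 0.68 ± 0.09, adjusted p = 0.00124). With every array brought to 1 common scale this mean was 0.52, under 1.5-fold. In ash1-22 *GstD11* was at 0.38 and 0.13 on 2 arrays, below every ash2-112411 array.

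The other D genes moved less. *GstD2*, *GstD4*, *GstD8* and *GstD10* were higher in ash2-112411 by 0.29 to 0.39 (adjusted p = 0.0121 to 0.0478), all under 1.5-fold. In ash2-I1 *GstD8* was at 0.10 and *GstD2*, *GstD4* and *GstD10* had values in 1 extraction only, the last of them at 1.00 in Cy5 and 0.17 in Cy3. *GstD7* had 1 array in ash2-112411 (0.42) and 1 in ash1-22 (0.17). Class D as a whole had 4 up and 0 down of 6 tested genes in ash2-I1, 3 up and 0 down of 10 in ash2-112411, and 1 up and 0 down of 9 in ash1-22. The shares of all tested genes were 5.54%, 8.49% and 1.81% up and 6.95%, 8.82% and 1.25% down.

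**Figure D2:**
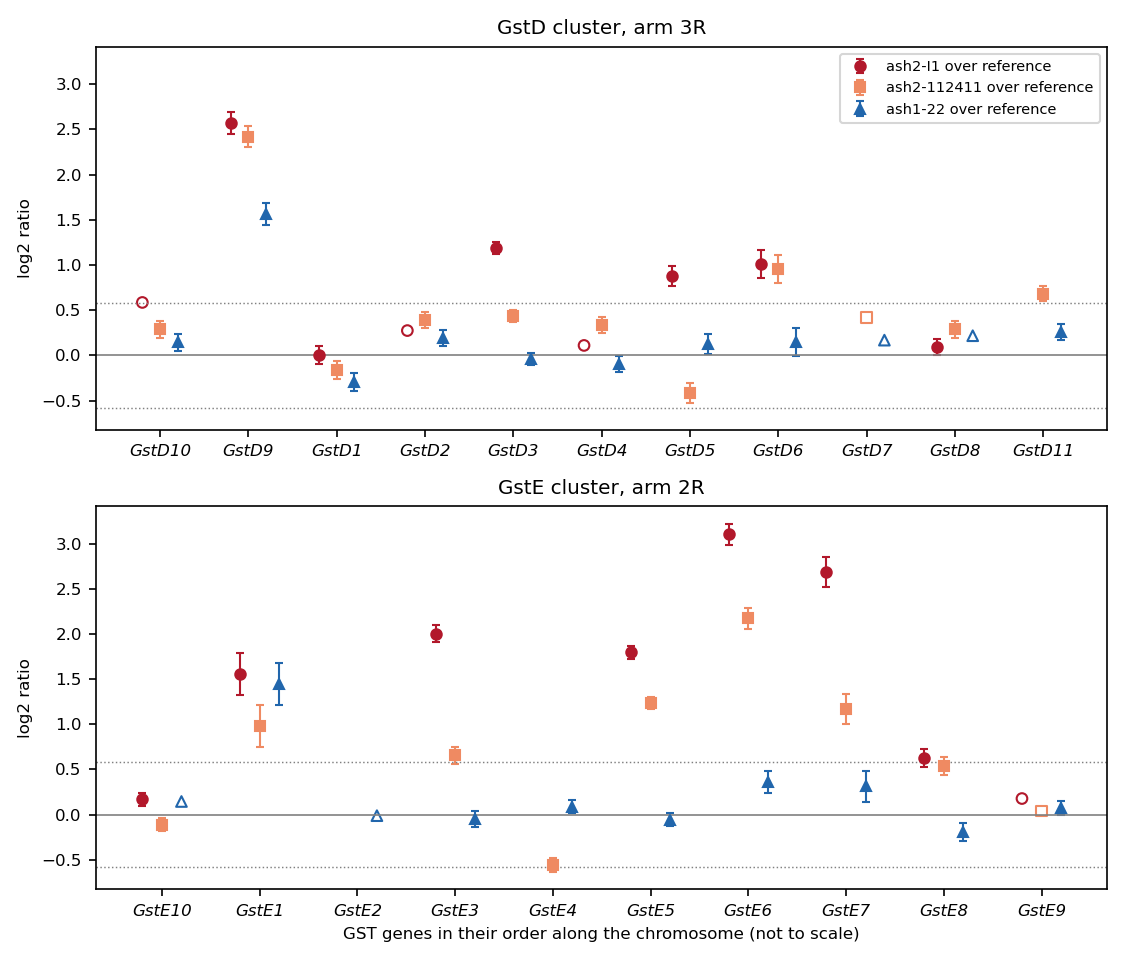
Mean log2 ratio of mutant over reference (vertical axis, bars 1 SE over 2 extractions) for the genes of the GstD cluster (upper panel) and the GstE cluster (lower panel) in chromosomal order; open symbols had values in 1 extraction and were not tested, and dotted lines mark 1.5-fold. *GstD9* stands above its neighbors in each allele, and *GstE3*, *GstE5*, *GstE6* and *GstE7* are high in the *ash2* alleles while ash1-22 stays between −0.05 and 0.36.

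In the E cluster 6 of 7 tested genes were upregulated in ash2-I1, while ash2-112411 had 5 of 8 and ash1-22 had 1 of 8 upregulated, and 0 were downregulated over 1.5-fold in any of them. Shares over all tested genes were 5.54%, 8.49% and 1.81% upregulated and 6.95%, 8.82% and 1.25% downregulated. *GstE6* was the highest of the tested GST genes in ash2-I1. It stood at 3.50 (Cy5) and 3.24 (Cy3), then 3.12 and 2.55, in ash2-I1 (mean 3.10 ± 0.12, adjusted p = 1.64e-05). In ash2-112411 it was at 2.56 and 1.77, then 2.44 and 1.92 (mean 2.17 ± 0.12, adjusted p = 8.52e-05). In ash1-22 the arrays were at 0.29 and 0.48, then 0.12 and 0.55 (mean 0.36 ± 0.12, adjusted p = 0.0932). All 12 arrays were above 0, and the ash1-22 arrays did not overlap those of either *ash2* allele.

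Its neighbor *GstE7* was at 2.83 (Cy5) and 2.15 (Cy3) in extraction 1 of ash2-I1 and at 2.88 (Cy5) in extraction 2, with a mean of 2.69 ± 0.17 (adjusted p = 6.6e-05). On the ash2-112411 arrays it was at 1.34 and 0.80, then 1.70 and 0.84 (mean 1.17 ± 0.17, adjusted p = 0.00126). In ash1-22 it had 2 arrays, at 0.68 in Cy3 and −0.05 in Cy5. Every ash2-I1 array lay above every ash2-112411 array.

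*GstE5*, on the other side of *GstE6*, was at 2.14 and 1.54, then 1.75 (Cy5 only), in ash2-I1 (mean 1.79 ± 0.07, adjusted p = 1.64e-05). The values in ash2-112411 stood at 1.88 and 0.70, then 1.55 and 0.83 (mean 1.24 ± 0.07, adjusted p = 9.24e-05), and in ash1-22 at −0.08 and −0.03 on 2 arrays. The ranges of the 2 *ash2* alleles overlapped, and both were clear of ash1-22.

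*GstE3* was high on the ash2-I1 arrays too, at 2.25 and 1.57, then 2.10 (Cy5 only), with a mean of 2.00 ± 0.09 (adjusted p = 2.58e-05). Its log2 ratios in ash2-112411 stood at 1.39 (Cy5) and 0.09 (Cy3), then 0.86 and 0.29 (mean 0.66 ± 0.09, adjusted p = 0.00104), and in ash1-22 at −0.16 to 0.13 on 3 arrays. The ash2-112411 call rested on the Cy5 arrays, since the Cy3 arrays alone gave 0.19 (adjusted p = 0.12). The mean was under 1.5-fold without extraction 1 (0.575) and on a common scale (0.53).

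*GstE1* was the E cluster gene upregulated in ash1-22 as well. It was at 2.60 (Cy5) and 1.59 (Cy3), then 1.02 (Cy3 only), in ash2-I1 (mean 1.56 ± 0.23, adjusted p = 0.0018). The ash2-112411 arrays were at 1.24 and 0.32, then 1.71 and 0.65 (mean 0.98 ± 0.23, adjusted p = 0.00967). In ash1-22 the values were 1.51 and 1.69, then 1.01 and 1.58 (mean 1.45 ± 0.23, adjusted p = 0.0119). The 3 alleles overlapped, all 11 measured arrays were above 0, and the adjusted p was above 0.05 without extraction 2 of ash2-112411 (0.106) or without either extraction of ash1-22 (0.143 and 0.07).

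*GstE8* was at 0.13 (Cy5) and 0.81 (Cy3), then 0.67 and 0.89, in ash2-I1, a mean of 0.63 ± 0.10 (adjusted p = 0.00273), which fell to 0.47 without extraction 2. On the ash2-112411 arrays it was at 0.09 and 0.78, then 0.61 and 0.69 (mean 0.54 ± 0.10, adjusted p = 0.00369, under 1.5-fold), and in ash1-22 it was at −0.31 to 0.01. The *ash2* alleles overlapped each other and not ash1-22. *GstE4*, not measured in ash2-I1, was lower in ash2-112411 on all 4 arrays, from −0.95 to −0.28 (mean −0.55 ± 0.08, adjusted p = 0.00164, under 1.5-fold), against 0.09 in ash1-22. *GstE10*, at the end next to *GstE1*, was at 0.17 in ash2-I1 and −0.11 in ash2-112411. *GstE9* was at 0.08 in ash1-22 and had 1 array in ash2-I1 (0.18) and 1 extraction in ash2-112411 (0.04). *GstE2* had 1 array in all, at −0.01 in ash1-22.

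Of the 4 E genes outside the cluster, *GstE11* was called up and *GstE12* down. *GstE11* was at 1.63 (Cy5) and 0.35 (Cy3), then 2.04 and 0.77, in ash2-112411 (mean 1.20 ± 0.14, adjusted p = 0.000502), and the Cy3 arrays alone gave 0.56, under 1.5-fold. In ash1-22 it was at 0.81 and 0.95, then 0.70 and 0.90 (mean 0.84 ± 0.14, adjusted p = 0.0125), a call lost without either extraction (adjusted p = 0.151 and 0.105) and with the 4 arrays taken as replicates (0.0665). In ash2-I1 it was at 0.01 and −1.04, then 0.43 and −0.47 (mean −0.27 ± 0.14, adjusted p = 0.167), so that all ash2-I1 Cy3 arrays were below 0 and all ash2-I1 Cy5 arrays above it. The ash1-22 arrays lay within the ash2-112411 range and above every ash2-I1 array.

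*GstE12* was at −0.71 and −1.08, then −0.37 and −0.68, in ash2-I1 (mean −0.71 ± 0.09, adjusted p = 0.00111). In ash2-112411 it was at −0.46 to −0.33 on 3 arrays (mean −0.40 ± 0.09, adjusted p = 0.00924, under 1.5-fold) and in ash1-22 at −0.15 to 0.03. Its ash2-I1 mean was −0.53 without extraction 1. *GstE13* was lower by less than 1.5-fold in ash2-I1 (−0.48 ± 0.09) and ash2-112411 (−0.37 ± 0.09) and was at 0.20 ± 0.09 in ash1-22 (adjusted p = 0.192). *GstE14*, the noppera-bo gene needed for ecdysone synthesis in the prothoracic gland, was measured only in ash1-22, at 0.02 to 0.66 (mean 0.34 ± 0.10, adjusted p = 0.0916).

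The omega, sigma, theta and zeta genes gave 0 upregulated genes in any allele, and 3 of them were downregulated in 1 *ash2* allele each. Of all tested genes, 5.54%, 8.49% and 1.81% were upregulated in ash2-I1, ash2-112411 and ash1-22, and 6.95%, 8.82% and 1.25% downregulated. These classes are small, and their counts were not tested against those shares. *GstS1*, the single sigma class enzyme, known for its abundance in flight muscle and for conjugating the lipid peroxidation product 4-hydroxynonenal, was at −0.87 (Cy5) and −1.10 (Cy3), then −0.76 (Cy5 only), in ash2-I1 (mean −0.87 ± 0.08, adjusted p = 0.000241). Its log2 ratios in ash2-112411 stood at −0.04 and −0.77, then −0.48 and −0.59 (mean −0.47 ± 0.08, adjusted p = 0.00246, under 1.5-fold), and in ash1-22 at −0.34 to 0.04. The ash2-I1 and ash2-112411 arrays overlapped by 1 array of ash2-112411. A second *GstS1* probe, tested only in ash2-112411, had the opposite sign, at 0.18 ± 0.10 (adjusted p = 0.195).

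*GstO3* was at −0.75 and −0.98, then −0.10 and −0.53, in ash2-I1 (mean −0.59 ± 0.12, adjusted p = 0.00715), and at −0.32 without extraction 1. In ash2-112411 it was at −0.58 to −0.21 (mean −0.38 ± 0.12, adjusted p = 0.0337) and in ash1-22 at −0.02 to 0.00. *GstO2* was downregulated in ash2-112411, at −0.43 and −0.58, then −0.56 and −0.86 (mean −0.61 ± 0.09, adjusted p = 0.00146), while its mean was −0.51 without extraction 2 and −0.46 on a common scale. It was at −0.68 to −0.17 in ash2-I1 (mean −0.40 ± 0.09, adjusted p = 0.0117) and at −0.27 to 0.05 in ash1-22. The second *GstO2* probe gave −0.35, −0.71 and −0.11 in ash2-I1, ash2-112411 and ash1-22, with the same calls. *GstO1* was at −0.14, −0.13 and 0.30, with no adjusted p under 0.0705.

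The theta genes stayed under 1.5-fold. *GstT1* was higher in ash2-I1 (0.40, adjusted p = 0.0103), *GstT2* lower in ash2-I1 (−0.44, 0.0208), *GstT3* lower in ash2-I1 (−0.40, 0.00483) and ash2-112411 (−0.34, 0.00736), and *GstT4* lower in ash2-112411 (−0.51, 0.00106). Class zeta enzymes isomerize maleylacetoacetate in tyrosine breakdown. *GstZ1* was at 0.25 to 0.65 in ash2-I1 (mean 0.47 ± 0.08, adjusted p = 0.00351), −0.18 to 0.22 in ash2-112411 (mean −0.04 ± 0.08) and −0.69 to −0.39 in ash1-22 (mean −0.52 ± 0.08, adjusted p = 0.0118). The 3 alleles did not overlap on this gene, and neither shift reached 1.5-fold. *GstZ2* was tested only in ash2-112411 (0.26, adjusted p = 0.106).

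Set among all tested genes, the upper end of the GST family lay in the far tail. *GstE6* ranked 8 from the top of 6897 genes in ash2-I1, *GstE7* 13, *GstD9* 15, *GstE3* 32 and *GstE5* 46. In ash2-112411 *GstD9* ranked 16 and *GstE6* 23 of 9734 genes, and *GstE11* and *GstE5* ranked 161 and 148. In ash1-22 *GstD9* ranked 15 and *GstE1* 17 of 8142 genes, with *GstE11* at 77 and *GstE6* at 393. The lowest GST gene of ash2-I1, *GstS1*, ranked 201 from the bottom.

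**Figure D3:**
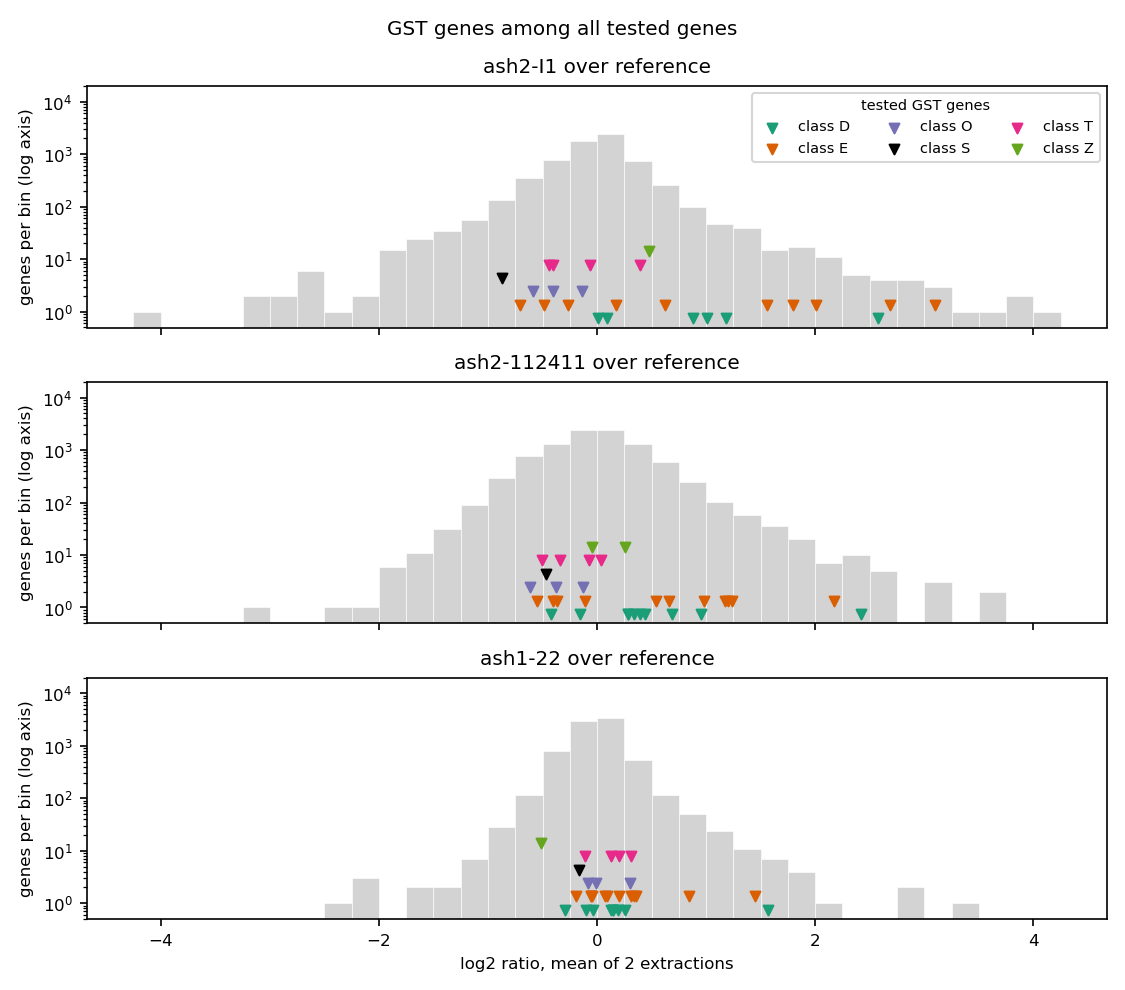
Number of tested genes (grey bars, log axis) by mean log2 ratio of mutant over reference in bins of 0.25 for each allele, with the tested GST genes as triangles by class, whose height has no meaning. The GST genes above 2 in the *ash2* alleles are of classes D and E, the O and S genes lie between −0.87 and 0.30, and 3 GST genes exceed 0.58 in ash1-22.

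Because chromosome 3 was not said to be replaced, the GST genes were also counted by chromosome. On chromosome 3, ash2-I1 had 4 of 10 tested GST genes up and 1 down (6.22% and 7.68% of all chromosome 3 genes). The same chromosome gave 3 up and 1 down of 15 in ash2-112411 (8.58% and 9.83%) and 1 up and 0 down of 13 in ash1-22 (1.77% and 1.71%). On chromosomes X and 2, 6 of 15 were up and 2 down in ash2-I1, 6 of 16 up and 0 down in ash2-112411, and 2 of 17 up and 0 down in ash1-22. All genes of X, 2 and 4 gave 5.13% up and 6.65% down in ash2-I1, 8.54% and 8.42% in ash2-112411, and 1.83% and 0.948% in ash1-22. The E cluster lies on a chromosome that the stocks took from the reference line, whereas the D, O and Z genes lie on chromosome 3. The mutation and other differences on chromosome 3 cannot be told apart for either group, since they could also affect genes of other chromosomes.

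The genes bordering the 2 clusters were measured where probes existed. Beside *GstD10*, *Tim17a1*, which encodes a mitochondrial translocase subunit, was tested only in ash1-22 (0.09), and *CG4115* was at 0.71 ± 0.10 in ash2-I1 (adjusted p = 0.00177), 1.03 ± 0.10 in ash2-112411 (0.000332) and −0.27 ± 0.10 in ash1-22 (0.131). Beyond *GstD11*, *Sol1* was at 0.40 and *CG33098* at 0.37 in ash2-112411. Past *GstE9*, *imd*, an adaptor of the immune deficiency pathway, was at −0.11, −0.14 and 0.05 in ash2-I1, ash2-112411 and ash1-22. *Dp1*, which encodes an RNA-binding KH domain protein, was at −0.69, −0.55 and −0.40, and *CG5174* at −0.12, −0.23 and −0.09. Past *GstE10*, *Idgf5*, *BomS6* and *BomS5* were at 0.12, 0.40 and −0.07 in ash2-112411. In ash2-I1 the 3 genes past *GstE9* were tested, 0 of them were called up and *Dp1* was called down (adjusted p = 0.000922 in limma). *Dp1* was lower by less than 1.5-fold in ash2-112411 (adjusted p = 0.00181) and ash1-22 (0.0313). The genes past *GstE10* were not tested in ash2-I1. The authors' own lists, however, place *CG5174* among genes upregulated over 1.5-fold in all 3 alleles, unlike the probe used here.

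In the *ash2* alleles most GST genes had the higher log2 ratio on the array with the mutant in Cy5. The Cy5 array was above the Cy3 array for 20 of 25 and 17 of 21 GST genes in the extractions of ash2-I1, where the share over all genes was 50.7% and 49.6%. It was above for 18 of 26 and 20 of 28 in ash2-112411 (55.4% and 52.4%), and for 9 of 23 and 5 of 18 in ash1-22 (52.7% and 42.6%). The median size of the gap between an extraction's arrays was 0.27 and 0.22 for GST genes of ash2-I1 (0.25 and 0.22 for all genes), 0.54 and 0.22 in ash2-112411 (0.39 and 0.22), and 0.19 and 0.27 in ash1-22 (0.13 and 0.16). Where an extraction kept only 1 array, as for *GstE3*, *GstE5*, *GstE7* and *GstS1* (Cy5) and *GstE1* and *GstD6* (Cy3) in extraction 2 of ash2-I1, the gap did not cancel. With only genes measured on all 4 arrays, 5 GST genes were called up in ash2-I1. With the Cy3 arrays alone *GstE1* fell under 1.5-fold in ash2-112411 (0.49). With the Cy5 arrays alone *GstE8* (0.40), *GstE12* (−0.54) and *GstO3* (−0.42) in ash2-I1 and *GstO2* in ash2-112411 (−0.50) did not reach 1.5-fold.

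**Figure D4:**
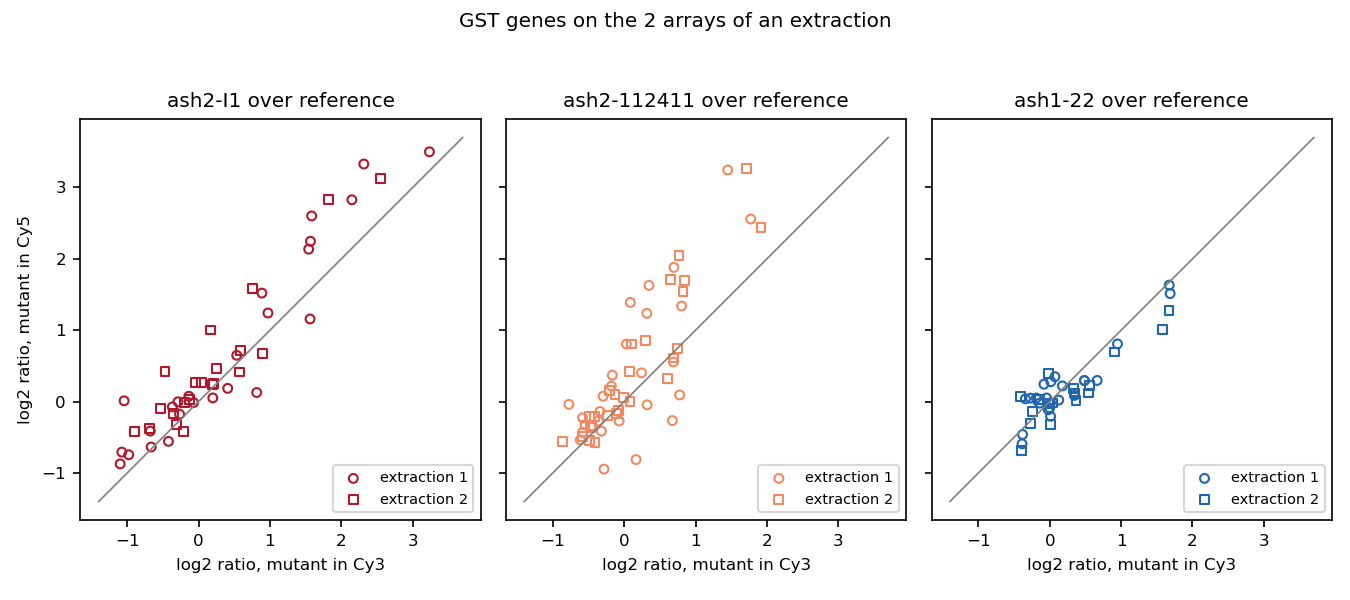
Log2 ratio of mutant over reference for each GST gene on the array with the mutant in Cy5 (vertical axis) against the array with the mutant in Cy3 (horizontal axis) of the same extraction, by allele; the line marks equal values. *GstD9* in ash2-112411 lies above the line, at 3.25 and 3.27 against 1.45 and 1.71, and *GstE8* in extraction 1 of ash2-I1 lies below it, at 0.13 against 0.81.

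The alleles were then contrasted with each other, where the reference pool cancels. Of 25 GST genes tested in both *ash2* alleles, 11 differed at an adjusted p under 0.05 (32.1% of all genes did), 9 higher and 2 lower in ash2-I1. Of 23 tested in ash2-I1 and ash1-22, 17 differed (23% of all genes), 10 higher and 7 lower in ash2-I1. Of 28 tested in ash2-112411 and ash1-22, 17 differed (27.1%), 11 higher and 6 lower in ash2-112411. The deposited arrays were scaled within each allele and not across alleles, which bears on every size given here.

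Between ash2-I1 and ash2-112411, *GstE7* (1.51 ± 0.24), *GstE3* (1.35 ± 0.13), *GstE6* (0.93 ± 0.17), *GstD3* (0.75 ± 0.09) and *GstE5* (0.56 ± 0.10) were higher in ash2-I1, the allele with the smaller discs. *GstD5* was higher in ash2-I1 by 1.30 ± 0.16, and *GstE11* was lower by 1.47 ± 0.19, the largest gap among GST genes in the other direction. *GstD9* did not pass the test (0.15 ± 0.17, 95% interval −0.24 to 0.55) but did on a common scale (0.62, adjusted p = 0.021). *GstD6* (0.05, −0.45 to 0.56) and *GstE8* (0.08, −0.25 to 0.42) did not pass it. These intervals do not show that the alleles act alike. The *GstE5* difference was lost with the 4 arrays taken as replicates (adjusted p = 0.167) and with the Cy5 arrays alone (0.23, adjusted p = 0.414).

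Between ash2-I1 and ash1-22, 4 E cluster genes gave the largest differences. The contrast of ash2-I1 minus ash1-22 was 2.74 ± 0.17 for *GstE6*, 2.37 ± 0.24 for *GstE7*, 2.05 ± 0.13 for *GstE3* and 1.85 ± 0.10 for *GstE5*, and the ash2-112411 contrast with ash1-22 was 1.81 ± 0.17, 0.86 ± 0.24, 0.70 ± 0.13 and 1.29 ± 0.10 for the same genes. On a common scale the ash2-112411 contrast was lost for *GstE7* (0.45, adjusted p = 0.39) and *GstE3* (0.61, 0.0542). For *GstE1* no pair differed, with ash2-I1 minus ash1-22 at 0.11 (95% interval −0.64 to 0.87) and ash2-112411 minus ash1-22 at −0.47 (−1.22 to 0.29), although the second of these was −1.34 on a common scale and passed (adjusted p = 0.0249). *GstE11* was lower in ash2-I1 than in ash1-22 by 1.11 ± 0.19, which did not pass with the Cy5 arrays alone (−0.53, adjusted p = 0.0867), and ash2-112411 minus ash1-22 was 0.36 (−0.09 to 0.81). *GstD9* was higher in ash2-I1 by 1.01 ± 0.17 and in ash2-112411 by 0.86 ± 0.17, but on a common scale these were 0.22 (adjusted p = 0.25) and −0.40 (0.0964). The *GstD11* difference of ash2-112411 minus ash1-22 (0.43) was 0.13 on that scale (adjusted p = 0.587). *GstZ1* differed in all 3 contrasts. It was higher in ash2-I1 by 0.52 ± 0.11 than in ash2-112411 and by 0.99 ± 0.11 than in ash1-22. In ash2-112411 it was higher than in ash1-22 by 0.47 ± 0.11. The first of these did not pass with the Cy5 arrays alone (0.51, adjusted p = 0.0524 in limma). The last did not pass with the Cy3 arrays alone (0.26, adjusted p = 0.126).

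**Figure D5:**
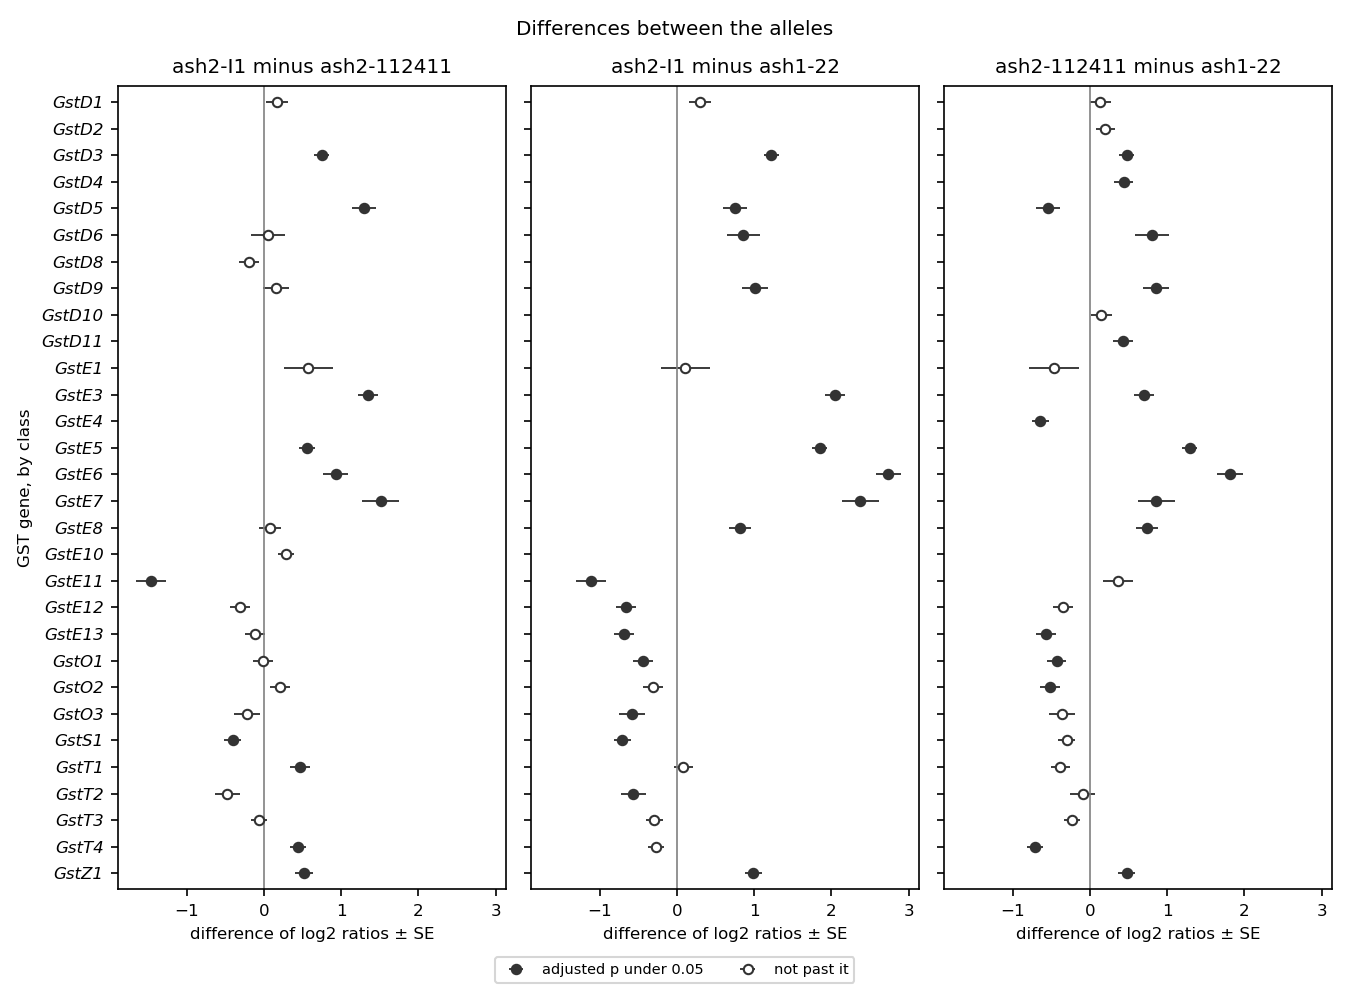
Difference of log2 ratios between alleles (horizontal axis, bars 1 SE) for each GST gene tested in both alleles of a pair (rows, by class); filled points passed an adjusted p under 0.05. *GstE6* and *GstE7* lie farthest to the right for ash2-I1 minus ash1-22, at 2.74 and 2.37, and *GstE11* farthest to the left, at −1.11.

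Other genes of glutathione metabolism were counted from lists of named genes. Every list count below stands against the shares of all tested genes. These were 5.54% up and 6.95% down in ash2-I1, 8.49% and 8.82% in ash2-112411, and 1.81% and 1.25% in ash1-22. The lists are short, and their counts were not tested against these shares. Of the enzymes that make and break down glutathione, 1 was up and 1 down of 7 tested in ash2-I1, 1 up and 2 down of 9 in ash2-112411, and 0 of 9 either way in ash1-22. The catalytic subunit of glutamate-cysteine ligase, *Gclc*, which carries out the limiting step of glutathione synthesis, was at 0.84 ± 0.11 in ash2-I1 and at 0.02 in ash2-112411. *Cth*, the cystathionine gamma-lyase that supplies cysteine, was lower in ash2-I1 (−1.17 ± 0.12) and ash2-112411 (−0.70 ± 0.12). In ash2-112411 the gamma-glutamyl transpeptidase *Ggt-1* was up (0.62 ± 0.08) and the glutathione synthetase *Gss1* down (−0.67 ± 0.07).

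Genes of the ABCC transporter family, only some of which export glutathione conjugates, gave 4 up and 0 down of 7 in ash2-I1. The counts were 3 up and 1 down of 10 in ash2-112411, and 0 of 9 in ash1-22. Of all tested genes 5.54%, 8.49% and 1.81% were up and 6.95%, 8.82% and 1.25% down. They were *Mrp4* (1.52 ± 0.23), *rdog* (0.99 ± 0.12), *CG7627* (0.86 ± 0.08) and *CG31793* (0.71 ± 0.06) in ash2-I1. In ash2-112411 they were *CG11898* (1.54 ± 0.17), *rdog* (0.66 ± 0.12) and *MRP* (0.61 ± 0.08), with *Cftr* lower (−0.75 ± 0.08). UDP-glucuronosyltransferases, another conjugating family, were mostly unmeasured in ash2-I1, with 2 up and 0 down of 3 tested, and gave 2 up and 0 down of 13 in ash2-112411 and 0 up and 1 down of 9 in ash1-22. *Ugt302K1* was at 2.64 ± 0.16 in ash2-I1 and 1.34 ± 0.16 in ash2-112411, with ash1-22 at −0.68 ± 0.16, *Ugt302C1* at 1.14 ± 0.08 in ash2-I1 and *Ugt35E2* at 0.79 ± 0.12 in ash2-112411.

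Genes of the CncC and Keap1 pathway, which induces several GST genes under oxidative stress, gave 2 up (*Mrp4* and *Gclc*) and 0 down of 10 in ash2-I1, 0 up and 1 down of 12 in ash2-112411, and 0 of 10 in ash1-22. The regulators themselves stayed under 1.5-fold, with *cnc* at 0.19, 0.03 and 0.12 and *Keap1* at 0.35, 0.11 and −0.01 in ash2-I1, ash2-112411 and ash1-22. *Keap1* was nonetheless higher in ash2-I1 at an adjusted p of 0.015 in limma. These are transcript ratios, and the activity of the pathway was not tested. Thioredoxin, glutaredoxin and peroxidase genes gave 0 up and 1 down of 11 in ash2-I1, 2 up and 3 down of 13 in ash2-112411, and 0 up and 1 down of 11 in ash1-22. Extracellular superoxide dismutase *Sod3* was lower in ash2-I1 (−1.50 ± 0.08) and ash2-112411 (−1.15 ± 0.08). In ash2-112411 the peroxiredoxin *Prx6a* (1.16 ± 0.07) and the immune-regulated catalase *Irc* (0.94 ± 0.08) were up, and thioredoxin reductase *Trxr1* (−1.03 ± 0.13) and catalase *Cat* (−0.88 ± 0.09) were down, while *Prx3* was down in ash1-22 (−0.74 ± 0.07). Of glutathione-using and GST-like proteins outside the Gst symbols, 0 were up and 1 down of 6 in ash2-I1 (the microsomal GST *Mgstl*, −0.74 ± 0.08). In ash2-112411 0 were up and 1 down of 7 (*gfzf*, −0.66 ± 0.07), and 0 of 7 changed over 1.5-fold in ash1-22.

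Markers of cells that could lie in or beside a dissected disc were counted too. For all tested genes the shares were 5.54%, 8.49% and 1.81% up and 6.95%, 8.82% and 1.25% down in ash2-I1, ash2-112411 and ash1-22. Wing disc patterning genes were down in 4 of 8 tested in ash2-I1 (*en*, *vg*, *ap* and *ci*, −1.13 to −0.77), 5 of 10 in ash2-112411 and 2 of 9 in ash1-22, and 0 were up. *Dll*, which specifies the distal limb, was at −1.44 in ash2-112411 and −0.67 in ash1-22. Of fat body markers, 1 was up and 0 down of 3, 5 and 3 tested in ash2-I1, ash2-112411 and ash1-22, and in each this was the transferrin *Tsf1* (4.01 ± 0.15, 3.51 ± 0.15 and 1.81 ± 0.15). The larval serum protein gene *Lsp2* was at −1.76, 0.44 and 1.92 without passing the test. Of hemocyte markers 0 of 7, 3 of 9 and 1 of 8 were up and 0 down, with the crystal cell gene *PPO2* at 0.58, 2.42 ± 0.26 and 1.21 ± 0.26. In ash2-112411 the other crystal cell oxidase *PPO1* (0.67) and the phagocytic receptor *eater* (0.60) were up too. The remaining hemocyte markers tested in ash2-112411 stayed under 1.5-fold, from −0.32 (*vkg*, adjusted p = 0.0179 in limma) to 0.25 (*crq*), with *lz* at −0.02. Gut and Malpighian tubule markers gave 0 of 1, 2 up (*Jon25Biii*, 0.87, and *Peritrophin-A*, 0.73) and 1 down (*Jon99Fi*, −0.64) of 12, and 0 of 8. Trachea markers gave 0 of 3, 1 of 3 (*btl*, 0.64) and 0 of 3 up, and muscle markers 2 of 5, 2 of 6 and 2 of 6 up, namely *Mlc2* and *Mp20*. The values are ratios and hold no level per cell type, and the part of these cells in the GST ratios was not tested.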

How the data were processed

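Wing disc RNA of ash2-I1, ash2-112411 and ash1-22 was measured on 12 two-color arrays of long oligonucleotides, 4 per allele from 2 RNA extractions with exchanged dyes, against 1 reference pool. By the methods, the authors quantified the scans with GenePix, removed spots failing quality thresholds, corrected background (normexp), normalized within arrays (OLIN) and equalized the spread (median absolute deviation) inside every 4-array set separately. They deposited log2 ratios, with Cy5 on top and Cy3 below; the sign was turned where the mutant was in Cy3. Raw intensities were not analysed here.

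Dye-swapped arrays were averaged per extraction. A single limma fit (version 3.58.1, R 4.3.3) covered 6 extractions and 11610 probes, giving each allele's mean, its test against 0 and the contrasts of alleles. Benjamini-Hochberg adjustment ran over all tested probes. Calls against the reference needed an adjusted p under 0.05 and a change over 1.5-fold, those between alleles only the adjusted p. The p-values measure the spread between extractions, leave out the pool's own error, and are limited by the number of arrays. The table had 16416 spots, of which 13164 carried 1 gene symbol, 101 several and 3151 none. A gene was represented by its probe measured on the most arrays. Names, chromosome arms and gene order came from the RefSeq annotation, which held all 35 GST genes; array files named no build, so no coordinates or sequences are given. The script was tested on simulated data. Members, lists and tests were chosen with earlier results of these data known. The text names every member, list genes called in at least 1 allele, and the 3 annotated genes beside each cluster end where tested. *cnc*, *Keap1*, *Lsp2*, *vkg*, *crq* and *lz* were named after their values were seen. Values of called genes in other alleles were added. Alternatives covered replicate averaging, separate fits, missing spots, scale, centring, probes, dye orientation, a replicate block and leaving out extractions.

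Same-numbered extractions of different alleles did not deviate together (r = 0.09, −0.05 and −0.13 across probes), so the numbers were not treated as pairs.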

Additional observations from a re-analysis of the deposited data

Results flagged for a closer look

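Arrays of 62 sets of 4 (a GST gene in an allele) were examined for a single array far from the other 3, and 2 sets held such an array. This is no more than the rate of about 1 in 20 that chance gives. That rate takes the 4 arrays as alike, although they differ in dye and extraction. In ash1-22 *GstD1* was at 0.066 on the array with the mutant in Cy5 of extraction 2, while the other 3 arrays lay between −0.46 and −0.38. In ash1-22 *GstD9* was at 1.28 on that same array, while the others lay between 1.63 and 1.67.

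Of 76 contrasts of a GST gene between alleles, 45 passed an adjusted p under 0.05 in limma and are given as differences of log2 ratios. Higher in ash2-I1 than in ash2-112411 were *GstE7* (1.51), *GstE3* (1.35), *GstD5* (1.30), *GstE6* (0.93), *GstD3* (0.75), *GstE5* (0.56), *GstZ1* (0.52), *GstT1* (0.47) and *GstT4* (0.44). Lower in ash2-I1 than in ash2-112411 were *GstE11* (−1.47) and *GstS1* (−0.40). Higher in ash2-I1 than in ash1-22 were *GstE6* (2.74), *GstE7* (2.37), *GstE3* (2.05), *GstE5* (1.85), *GstD3* (1.22), *GstD9* (1.01), *GstZ1* (0.99), *GstD6* (0.86), *GstE8* (0.82) and *GstD5* (0.75). Lower in ash2-I1 than in ash1-22 were *GstE11* (−1.11), *GstS1* (−0.71), *GstE13* (−0.68), *GstE12* (−0.66), *GstO3* (−0.58), *GstT2* (−0.57) and *GstO1* (−0.44). Higher in ash2-112411 than in ash1-22 were *GstE6* (1.81), *GstE5* (1.29), *GstE7* (0.86), *GstD9* (0.86), *GstD6* (0.80), *GstE8* (0.74), *GstE3* (0.70), *GstZ1* (0.47), *GstD3* (0.47), *GstD4* (0.44) and *GstD11* (0.43). Lower in ash2-112411 than in ash1-22 were *GstT4* (−0.71), *GstE4* (−0.64), *GstE13* (−0.57), *GstD5* (−0.55), *GstO2* (−0.52) and *GstO1* (−0.43).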

How the results depend on the processing

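Of 549 values that the 16 called GST genes took in the 3 alleles under the alternatives, 517 kept direction and side of the threshold, 21 were no longer past it and 6 newly past it. The sign turned in 5, none past the threshold in either setting, which were *GstE11* in ash2-I1 (0.22) and *GstO2* in ash1-22 (0.040) with Cy5 only, and, in ash1-22 with 1 extraction left out, *GstD3* (−0.081 to 0.0070), *GstE3* (−0.16 to 0.073) and *GstE7* (−0.049 to 0.68). Counts moved by over 1.5 times as follows, and the cause was not tested. In ash2-I1, 5 genes were up where all 4 arrays were measured (fewer genes tested) and 1 was down with the mutant in Cy5 only. In ash2-112411, 0 were down on a common scale, 2 with Cy5 only and 3 with Cy3 only. In ash1-22, 1 was down on a common scale, with Cy5 only, and without the array with the fewest spots (chosen after seeing the data), and 1 was up without either extraction. Genes that differed between ash2-I1 and ash2-112411 numbered 7 with Cy5 only. Between ash2-I1 and ash1-22 they numbered 11 with all 4 arrays measured, 9 with Cy5 only and 10 with Cy3 only, and 9 to 17 when 1 extraction was left out. Between ash2-112411 and ash1-22 they numbered 9 with the 4 arrays as replicates, 9 with all 4 measured, 11 on a common scale, 11 with Cy5 only and 9 with Cy3 only, and 3 to 11 when 1 extraction was left out. Of the 45 differences, 16 passed the threshold in every alternative run and 20 in all but those leaving out an extraction. On a common scale 10 of the 45 were lost and 3 other contrasts passed (*GstD9*, ash2-I1 minus ash2-112411, *GstE1*, ash2-112411 minus ash1-22, and *GstT4*, ash2-I1 minus ash1-22). *GstD9*, ash2-112411 minus ash1-22, reversed to −0.40 on a common scale and to −0.090 with Cy3 only. With the extraction number as a replicate block, which is only a shared number, 10, 16 and 15 genes differed in the 3 contrasts, and the calls up (10, 9 and 3) and down (3, 1 and 0) stayed as counted. Depth is not part of the values, and the number of arrays limits the precision.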
